A study of Mus musculus with 4 samples.

Results

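The 7 genes Gabra2, Gabra4, Gabrb1, Gabrg1, Gabra5, Gabrg3 and Gabrb2 encode subunits of the GABA-A receptor and stand in 3 clusters of the mouse genome, on chromosomes 5, 7 and 11. A peak was counted for a gene when its summit lay inside the RefSeq GRCm38 span of the gene or within 30 kb of that span, and 9 of the 7484 peaks of the series did so. The peaks come from an immunoprecipitation (IP) of TRα1, a thyroid hormone receptor, fused to the GS tag and taken from mouse striatum carrying Gad2-Cre and the Thra-GS allele. GS is a tandem affinity tag that contains protein G, and the IP used magnetic beads coated with IgG. There were 3 IP fractions and 1 input from the same kind of striatum, so both groups carry both alleles. Gad2-Cre is a driver of GABAergic neurons, while striatum also holds glia and vessels. Age, the number of animals and any pooling are not given in the sources used here, and no IP from untagged animals was analysed here. All libraries are joined in 1 list, so no value below has an error between fractions. No test between IP and input across fractions can be made, and the only q-values are those of the peak caller. A peak list also holds no expression, so the tissue could not be checked by its marker genes.

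GABA-A receptors are pentameric chloride channels that carry most fast inhibition in the brain. Each is assembled from α, β and usually γ or δ subunits, and the choice of α subunit sets where the receptor sits and how it responds to GABA and to benzodiazepines. Most subunit genes lie side by side in clusters that arose by duplication, each with α, β and γ genes. Thyroid hormone receptors bind DNA mostly with the retinoid X receptor, at paired copies of the half-site AGGTCA, often as direct repeats with a gap of 4 bases, known as DR4.

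The stronger of the 2 chromosome 5 peaks in these windows lay on the overlapping 5′ ends of Gabra4 and Gabrb1. This place is shown first because only here did a peak meet a start window of the 7 genes, that of Gabra4. The first start window of Gabrb1 lay 114 bp outside the peak. Windows run from 250 bases before to 50 after a RefSeq start, 5′ to 3′ on the strand of the gene, build GRCm38.p6. In the Gabra4 window, chr5:71658259-71658558 on the minus strand, capitals mark the 203 bases that lie inside the peak, whose summit is base 244.
Gabra4: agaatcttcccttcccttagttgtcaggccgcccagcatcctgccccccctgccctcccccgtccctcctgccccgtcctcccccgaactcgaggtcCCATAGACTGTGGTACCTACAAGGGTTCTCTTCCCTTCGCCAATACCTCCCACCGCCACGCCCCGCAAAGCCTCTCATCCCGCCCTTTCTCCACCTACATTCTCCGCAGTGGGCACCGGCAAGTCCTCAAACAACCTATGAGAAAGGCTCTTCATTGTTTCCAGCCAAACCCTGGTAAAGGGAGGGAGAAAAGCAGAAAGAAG
In the next windows, capitals mark CG dinucleotides. Gabrb1, chr5:71657671-71657970 on the plus strand, is the neighbour that starts in the opposite direction. Gabrg3, chr7:57387166-57387465 on the minus strand, lies between the 2 strongest of the 9 peaks, both on chromosome 7. Gabra2, chr5:71095800-71096099 on the minus strand, has no peak in its surroundings.
Gabrb1: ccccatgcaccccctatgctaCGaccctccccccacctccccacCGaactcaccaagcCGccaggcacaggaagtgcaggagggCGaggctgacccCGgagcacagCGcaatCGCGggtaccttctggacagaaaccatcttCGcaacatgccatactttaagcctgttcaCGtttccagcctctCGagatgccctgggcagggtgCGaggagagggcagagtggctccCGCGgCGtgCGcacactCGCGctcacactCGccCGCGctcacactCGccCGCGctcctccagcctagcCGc
Gabrg3: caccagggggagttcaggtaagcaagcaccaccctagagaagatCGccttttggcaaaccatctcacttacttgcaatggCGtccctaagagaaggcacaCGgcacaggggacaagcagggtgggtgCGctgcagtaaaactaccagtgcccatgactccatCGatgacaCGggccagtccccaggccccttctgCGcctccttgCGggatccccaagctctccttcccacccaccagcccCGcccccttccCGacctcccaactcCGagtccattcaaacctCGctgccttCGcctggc
Gabra2: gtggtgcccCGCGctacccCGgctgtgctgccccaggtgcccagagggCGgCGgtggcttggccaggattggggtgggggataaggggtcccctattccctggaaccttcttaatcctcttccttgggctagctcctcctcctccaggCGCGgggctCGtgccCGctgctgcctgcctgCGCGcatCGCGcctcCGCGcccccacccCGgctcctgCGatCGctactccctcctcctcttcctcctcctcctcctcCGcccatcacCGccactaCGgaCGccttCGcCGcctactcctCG
The CG count was 12 in the Gabra4 window, 25 in each of the Gabrb1 and Gabra2 windows and 13 in the Gabrg3 window, against a median of 7 over all 32841 windows. The median was 21 in the 537 windows that hold a summit and 7 in the 32304 without one. Of the 7 genes, only Gabra4 had a summit in its window.

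None of the 10 start windows of the 7 genes held AGGTCA on either strand, a 6-base word present in 16.3% of all windows. None held the DR4 word, AGGTCA followed by 4 bases of any kind and AGGTCA again, on either strand with at most 2 mismatches; an exact match of it also holds the first word. This compares with 3.02% of all windows. The fewest mismatches to it were 4 in the Gabra4 window and 3 in the Gabra5 window. Of the 537 windows that hold a summit anywhere in the genome, 11.4% matched this spaced repeat, against 2.89% of the 32304 windows without one; AGGTCA alone was in 17.3% and 16.2% of them. These are descriptions of the letters in 300-base windows. Of the peak at the Gabra4 start, which is 377 bp wide, only the 203 bases inside the window were searched. The sequence of the other 8 peaks was not used here.

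Of the 7 genes, 4 had at least 1 peak: Gabra4, Gabrb1, Gabrg3 and Gabra5. Over all 21887 protein-coding genes the same rule gave a peak to 32.4%, and over the 2678 genes whose length lies between the shortest and longest of the 7 (88.6 to 671 kb) it gave one to 51.3%. The 3 genes without a peak were Gabrg1, Gabra2 and Gabrb2. Of the 9 peaks, 2 were on chromosome 5, 7 on chromosome 7 and none on chromosome 11. Their density was 2.02 per Mb on chromosome 5 (95% exact Poisson interval 0.245 to 7.31) and 7.49 per Mb on chromosome 7 (3.01 to 15.4), against 3.96 per Mb in the windows of all protein-coding genes. The 2 intervals overlap, and both include the value for all genes. On chromosome 11 only the Gabrb2 window was counted, 0.273 Mb long. The interval for its count of 0 was 0 to 13.5 per Mb, which also includes that value. The peaks are numbered 1 to 9 below by chromosome and position.

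**Figure D1:**
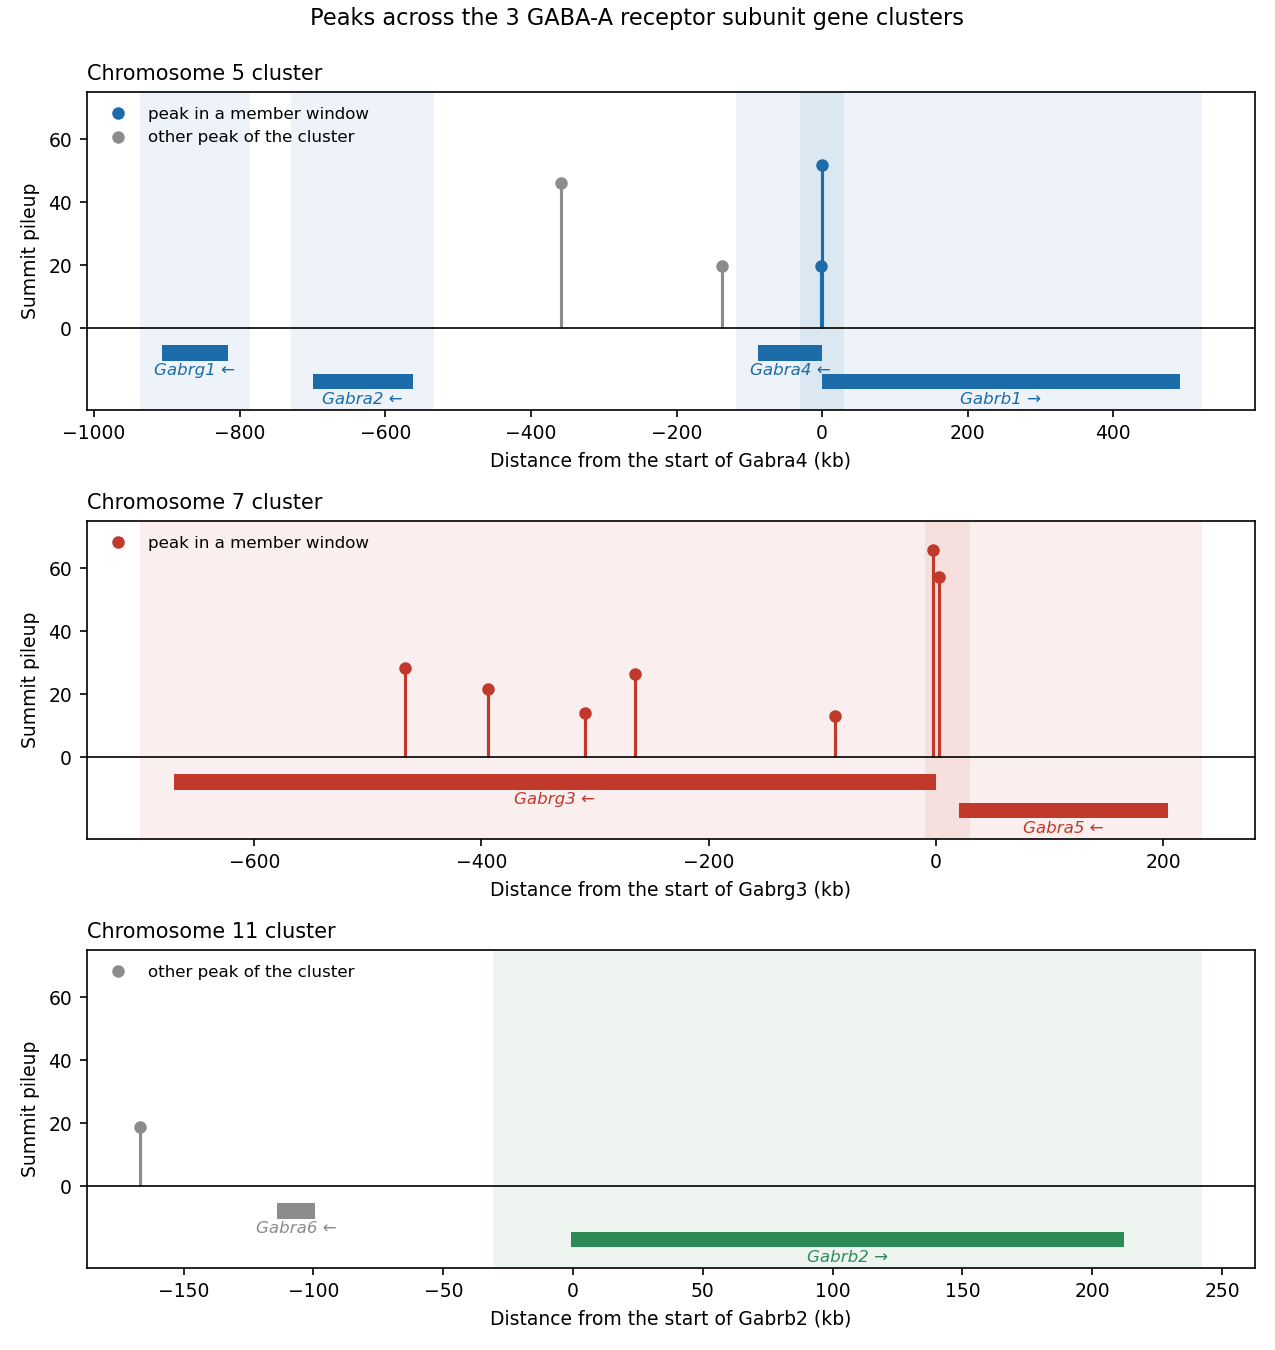
Peaks across the 3 clusters, with the distance in kb from the start of Gabra4, Gabrg3 or Gabrb2 on the horizontal axis and the summit pileup (height of stacked fragments, as deposited) on the vertical axis. Bars are gene spans with arrows for the strand where the promoter table gives it. Shading marks the spans of the 7 genes with 30 kb on both sides. Grey marks Gabra6 and 3 other peaks, since not every peak outside the shading is drawn. The tallest peaks stand at the start of Gabra4, at 51.65, and on either side of the Gabrg3 start, at 65.73 and 57.28.

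Gabra4 encodes α4, an α subunit of extrasynaptic receptors found in striatal projection neurons and thalamus, and Gabrb1 encodes β1. The genes are read in opposite directions and their annotated 5′ ends overlap by 388 bp. Peak 2, chr5:71658085-71658461, had a pileup of 51.65 in the IP over a local background of 1.89, a fold enrichment of 18.2 as the authors give it. This corresponds to 55 fragments at the summit, with a 95% exact Poisson interval of 41.4 to 71.6 that covers counting error only. Its summit was 7 bp before the start of Gabra4 and 394 bp past the first start of Gabrb1. The peak therefore covers the overlap of the 2 genes in part, with 224 bp in both spans, and cannot be assigned to either.

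Peak 1, chr5:71656828-71657056, lay 1358 bp away inside Gabra4, 1351 bp past its start and 964 bp before Gabrb1. Its pileup in the IP was 19.72 over a background of 2.00, with 21 fragments (interval 13.0 to 32.1) and a fold of 6.91. The intervals of peaks 1 and 2 do not overlap, and the pileup of peak 2 was 2.62 times that of peak 1. By pileup, 92.4% of all peaks were lower than peak 2 and 37.0% were lower than peak 1. No further summit was listed in the rest of Gabra4, or over the 492 kb of Gabrb1, whose second start at 71699932 was 41.6 kb from the nearest summit.

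Gabrg1 encodes γ1, and Gabra2 encodes α2, a synaptic α subunit abundant in striatum. They fill the lower-coordinate end of the chromosome 5 cluster, and no listed summit lay in or within 30 kb of either. The nearest was at 71299861, in the gap between Gabra2 and Cox7b2, a gene named for a cytochrome c oxidase subunit. It lay 204 kb before the start of Gabra2 and 457 kb before that of Gabrg1, in no annotated gene. That intergenic peak was strong, with a pileup of 46.01 and a fold of 16.3. A weaker one, with a pileup of 19.72, lay inside Cox7b2 at 49.2 kb from Gabra4 and so outside the 30 kb limit.

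Gabrg3 encodes γ3 and is the longest of the 7 genes at 671 kb. It had 7 peaks, of which 6 lay inside the gene and 1 just before it. At least 7 peaks were found for 0.228% of all protein-coding genes, and for 9.09% of the 132 genes at least as long as Gabrg3, of which 80.3% had at least 1. The number of peaks at Gabrg3 is thus uncommon among all genes and less so among genes of its length.

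The 2 strongest of these 7 peaks lay on either side of the Gabrg3 start. Peak 8, chr7:57384218-57384833, was 2642 bp inside the gene, with a pileup of 65.73 in the IP over a background of 1.89 and a fold of 23.1. It was also the widest of the 9 at 616 bp, against a median of 260 bp for all peaks. Peak 9, chr7:57390126-57390449, was 3074 bp before the start, with a pileup of 57.28 over a background of 3.00 and a fold of 14.6. The summit counts were 70 fragments (54.6 to 88.4) for peak 8 and 61 (46.7 to 78.4) for peak 9. The intervals of the pair, 5716 bp apart, overlap, and a difference between the 2 was not tested. The lower fold of peak 9 goes with its higher local background. Its summit lies inside Gm9962, a long non-coding RNA gene at chr7:57387272-57409941 that fills most of the gap between Gabrg3 and Gabra5.

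The other 5 peaks of Gabrg3 were spread over the body of the gene, at 89.1, 264.7, 308.9, 393.8 and 467.5 kb past its start. In that order, peaks 7, 6, 5, 4 and 3 had pileups of 13.15, 26.29, 14.09, 21.60 and 28.17 and folds of 4.90, 8.94, 5.22, 7.66 and 9.72. Their intervals reached at most 40.2 in pileup, below the lower bounds of 51.2 for peak 8 and 43.8 for peak 9. They thus stood lower than the pair on either side of the start. The median pileup over all 7484 peaks was 21.60. By pileup, 3.41% of all peaks were lower than peak 7 and 6.43% were lower than peak 5, so these were among the weakest listed. For peaks 4, 6 and 3 the shares were 46.6%, 63.1% and 67.6%. Peak 7 lies inside both Gabrg3 and the non-coding gene Gm39017. Local backgrounds of these 5 peaks were 1.89 to 2.05.

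**Figure D2:**
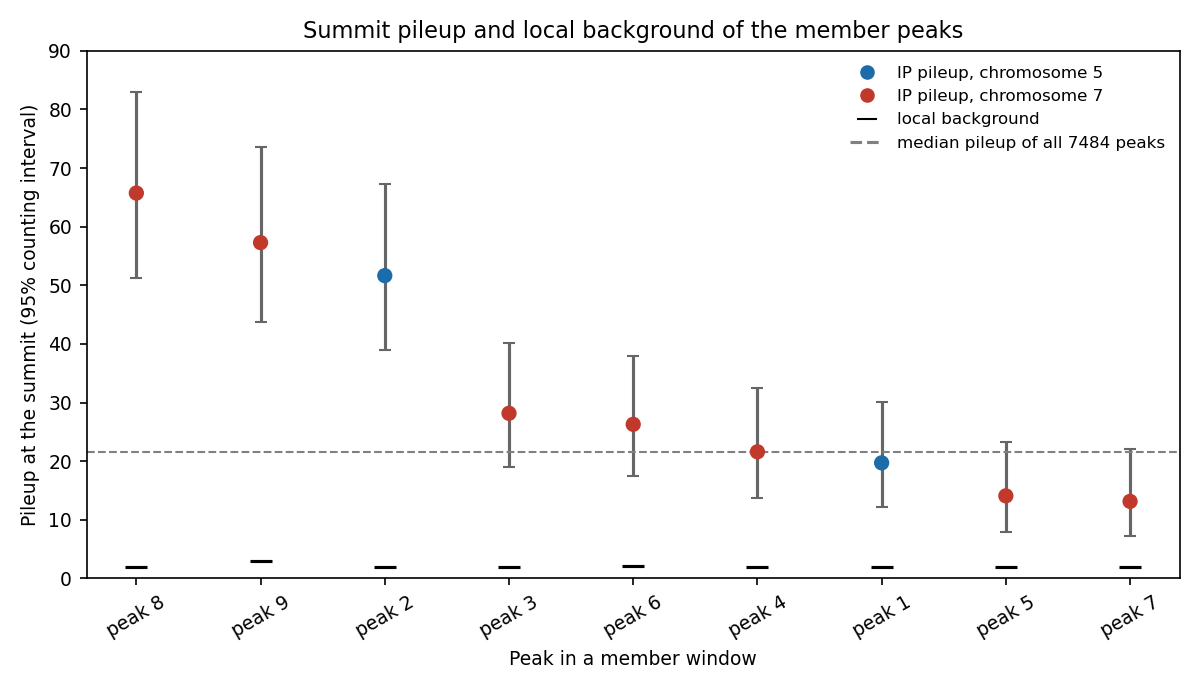
Summit pileup of the 9 peaks in the IP, ordered by height, with 95% exact Poisson intervals of the fragment count as error bars (counting error only) and the local background as black dashes. Peaks 8, 9 and 2 stand at 65.73, 57.28 and 51.65, the other 6 at 13.15 to 28.17, and the backgrounds at 1.89 to 3.00; the dashed line is the median pileup of all peaks, 21.60.

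Gabra5 encodes α5, the α subunit of extrasynaptic receptors best known from hippocampus. It held no summit inside its 183 kb, and its only peaks were peaks 8 and 9, at 23.1 and 17.4 kb past its 3′ end. These are the peaks on either side of the Gabrg3 start, because Gabra5 is read towards Gabrg3 and only 20453 bp separate the genes. From the Gabra5 start of the promoter table, at 57510059, the nearest summit was 119.8 kb away. From the 5′ end of the Gabra5 span, at 57591016, which is further out, it was 44.2 kb away. Peak 8, at 23.1 kb, was the member peak closest to the 30 kb limit from inside, and the nearest summits outside it were at 44.2 kb from Gabra5 and, inside Cox7b2, at 49.2 kb from Gabra4.

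Gabrb2 encodes β2, a β subunit of the most widespread receptor type in brain. No listed summit lay in its 213 kb or within 30 kb of it. The nearest summit was 166 kb below the gene, at 42253530, with a pileup of 18.78 and a fold of 5.76. Regions that did not pass the caller are not in the list, so a weaker enrichment at Gabrb2, Gabra2 or Gabrg1 could not be seen here.

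**Figure D3:**
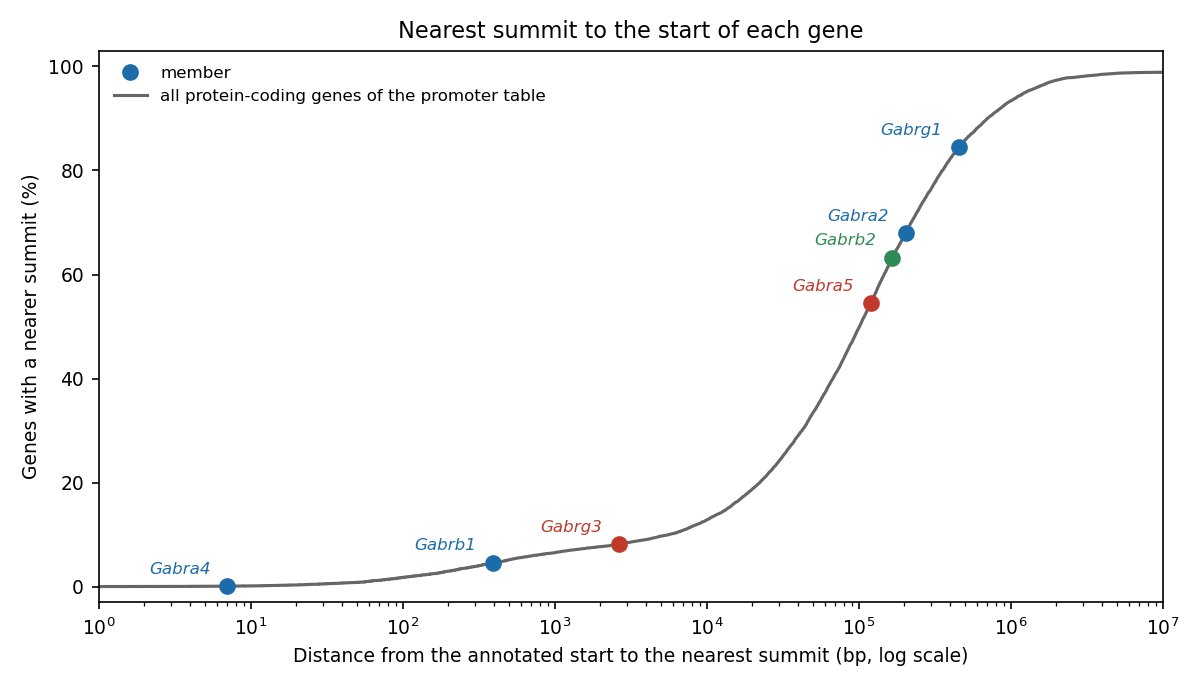
Distance from the annotated start of a gene to the nearest summit (horizontal, log scale) against the percentage of 17492 protein-coding genes with a nearer summit (vertical); points are the 7 genes, blue for chromosome 5, red for chromosome 7 and green for chromosome 11. Gabra4, Gabrb1 and Gabrg3 lie at 7, 394 and 2642 bp, and the other 4 genes between 119.8 and 457 kb, beyond the median of 101 kb; Gabra5, at 119.8 kb here, is at 44.2 kb from the 5′ end of its span.

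Measured from the annotated starts, the 7 genes therefore fell far apart. A summit within 1 kb of a start was found for Gabra4 and Gabrb1 and for 6.55% of the 17492 protein-coding genes with a start in the table. The nearest summit was that of peak 2 for both Gabra4 and Gabrb1. Within 5 kb there was also Gabrg3, against 9.73% of all genes. Gabra5, Gabrb2, Gabra2 and Gabrg1 were beyond 100 kb, as were 50.3% of all genes, although Gabra5 is at 44.2 kb when measured from the 5′ end of its span.

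Peaks were shared between neighbouring genes. Of the 9 peaks, 4 fell into the windows of more than 1 of the 7 genes. Of all peaks in windows of protein-coding genes, 42.7% fell into more than 1 window. That share is of a wider rule, since it counts the windows of any protein-coding genes. Gabra4 and Gabrb1 shared 2 of the 2 peaks of each. Gabrg3 and Gabra5 shared 2, out of 7 for Gabrg3 and 2 for Gabra5. In both clusters the shared peaks included the strongest one, and 4 of the 9 summits, all of them shared, lay within 5 kb of a start.

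**Figure D4:**
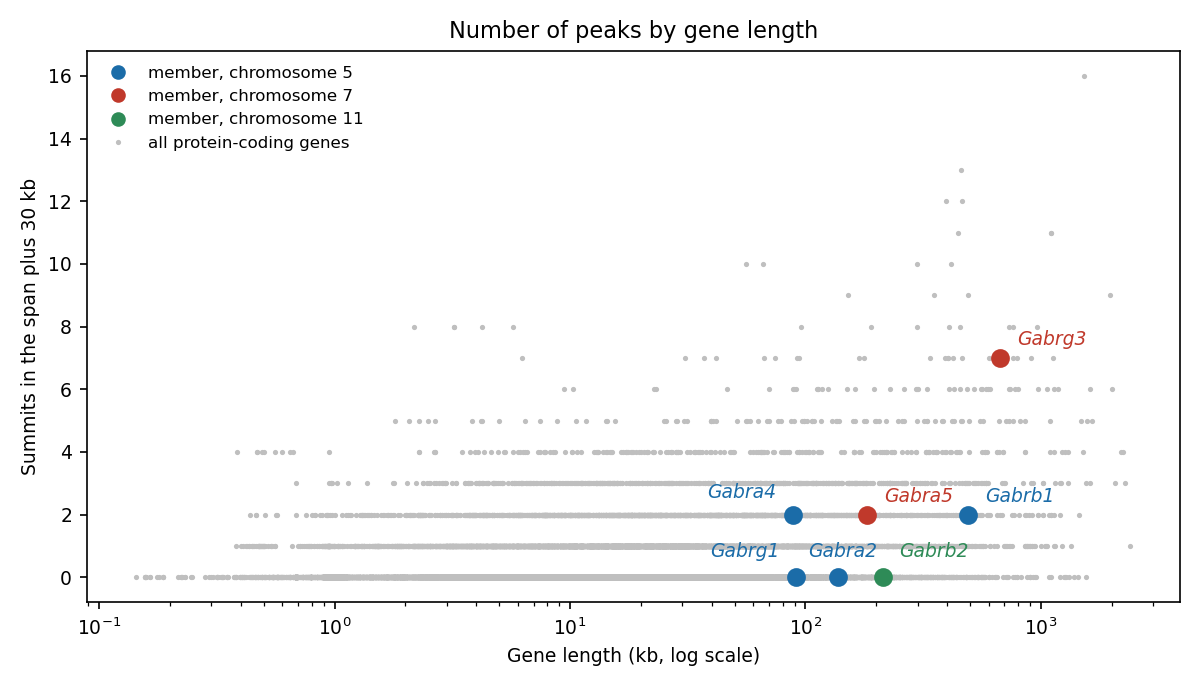
Number of summits in the span of a gene plus 30 kb (vertical) against gene length in kb (horizontal, log scale), for the 7 genes (coloured by chromosome) and all 21887 protein-coding genes (grey). Gabrg3 has 7 summits, Gabra4, Gabrb1 and Gabra5 have 2 each and Gabrg1, Gabra2 and Gabrb2 have 0.

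Of the 16 subunit genes analysed here, 5 had a peak (31.25%, against 32.4% of protein-coding genes), the 4 described above and Gabrd. Gabrd encodes the δ subunit that pairs with α4 in extrasynaptic receptors. Its peak had a pileup of 16.90 and a fold of 4.48 inside a stretch that Gabrd and Cfap74 share. Gabra3, Gabre and Gabrq on chromosome X had none, where 7.87% of genes had one. None was found at Gabra6, an α gene of the chromosome 11 cluster known for cerebellar granule cells, or at Gabrp, Gabrr1, Gabrr2 and Gabrr3.

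A list of 26 genes was drawn up mainly for products that carry GABA-A receptors to the membrane, anchor them or set the chloride gradient. Of these, 16 had a peak (61.5%, against 32.4% of protein-coding genes). In 9 of the 16 the strongest summit lay inside the gene itself. Gabarap, which encodes the GABA-A receptor-associated protein, had a pileup of 42.26, but the summit was 10997 bp away inside Elp5. Lhfpl4, which encodes a partner of the receptor at inhibitory synapses, had 37.56 inside the gene, and Trak1, a trafficking adaptor gene, had 33.80 inside the gene. Slc12a5, which encodes the chloride exporter KCC2, had 37.56 at 22033 bp. Gphn, the gene of the scaffold gephyrin, and Nlgn2, the gene of the inhibitory adhesion protein neuroligin, had no listed peak. Gene length and neighbouring genes were not matched in these list counts.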

How the data were processed

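Chromatin of mouse striatum was sequenced on the Ion Proton platform after IP on IgG-coated beads (3 fractions) or as input (1 library), per the labels' protocols. Per the submitters' processing notes, the tools were MACS2 2.1.1.20160309.0 and Bowtie2 2.3.4.2 and the build mm10, also called GRCm38, with no settings. Any pooling of fractions before peak calling is not stated in the sources used. The authors deposited 1 peak list with the pileup signal at each summit, a linear ratio (fold enrichment over local background), and −log10 p-values and q-values, per the file headers. Depth per library is unknown.

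Pileups were multiples of a step of 0.939 (largest residual 0.00504), which gave fragments per summit and their 95% exact Poisson intervals, covering counting error only; PCR copies are not independent molecules. Local background was recovered as (pileup + 1) / fold − 1. Its lowest value over all peaks was 1.89 and its median 2.00. Peaks 2, 5, 7 and 8, at 1.89, thus had about the lowest background of the list, and whether this is a local level is not known. Genes and start windows came from RefSeq tables of GRCm38.p6; all 16 subunit symbols used here matched, and all 7 genes had a start window. Coordinates are from 1. Peak counting and motif search were checked on simulated data. Python 3.11.15, pandas 2.3.3 and scipy 1.17.1 were used. Named genes are the 7, Gabra6 of the same clusters, genes at their summits, and up to 4 genes per list with the highest pileup; Gabrd, Cox7b2, Gphn, Nlgn2, Chrna5, Chrnb4 and the genes named as lacking a peak outside the clusters were named after their values were seen. The genes and lists were chosen with earlier results of these data known. Some subunit genes of these clusters are not reported here. No chance test was run.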

Additional observations from a re-analysis of the deposited data

How the results depend on the processing

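No paired analysis was possible because the list holds no value per library, and for the same reason no fraction could be left out in turn. Of 93 recomputed values, 72 stayed within 1.5 times the reported count or within the counting interval of the reported pileup, and 21 moved. Some of the 72 could not have moved. The chromosome 11 count of 0 can only stay 0 under a stricter list or a narrower window. Leaving out the 1% highest pileups and 1% widest peaks kept all 9 member peaks. The 4 genes with a peak were the same 4 under the stricter list thresholds, with 100 kb, by gene ends and by peak overlap; with 0 kb or 5 kb added, Gabra5 dropped out.

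With a −log10 q of at least 10 the chromosome 5 genes had 1 peak, the chromosome 7 genes 5 and all clusters together 6. The median pileup of the member peaks was then 39.91 in place of 26.29. A peak was left at 10 trafficking and anchoring genes, 2 other Cys-loop genes and 1 marker of another cell type, where 20.4% of protein-coding genes had one. Above the median fold the peak counts were again 1, 5 and 6 and the median pileup 39.91, and the 3 lists gave 9, 2 and 1 genes, against 19.5% of genes. With 0 kb added to the span, 0 peaks were shared, and 2 Cys-loop genes and 1 marker had a peak, against 13.7% of genes; with 5 kb, 2 peaks were shared, and the last 2 lists gave 2 and 1, against 19.1%. With 100 kb, 11 of 23 Cys-loop genes and 8 of 15 markers had a peak, against 54% of genes. Counting only within 30 kb of a gene end left 2 peaks on chromosome 7 and 4 in all, with a median pileup of 54.465, since this leaves out the body of Gabrg3. The spaced repeat and the half-site gave the same count of 0 start windows, and ranking by fold gave the same strongest peak on both chromosomes.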

Other observations

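Other members of the Cys-loop receptor family, the glycine, nicotinic acetylcholine and serotonin type receptors, had a peak in 7 of 23 genes (30.4%, against 32.4% of all protein-coding genes). Chrna7, which encodes the α7 nicotinic subunit, had a pileup of 31.93 inside the gene. Chrna3 had 19.72 inside the gene, and Chrna5 and Chrnb4 counted the same peak, as neighbours in 1 cluster. The peaks counted for Htr3b and Chrne, with pileups of 28.17 and 27.23, lay inside Usp28 and Mink1. None of the glycine receptor genes of the list, Glra1, Glra2, Glra3, Glra4 and Glrb, had a listed peak.

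Of 15 markers of glutamatergic neurons, glia and vessels, 3 had a peak (20%, against 32.4% of all protein-coding genes). Mbp, a myelin gene, had 34.74 inside the gene, whereas the peaks counted for Mog, with 20.66, and P2ry12, with 15.02, lay inside Gabbr1, a GABA-B receptor gene, and Med12l.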
